A study of Mus musculus with 10 samples.

Results

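Nuclear receptors are transcription factors that, in most cases, bind a small lipid-soluble ligand and then regulate genes that carry their response elements. The family holds the receptors for steroid and thyroid hormones, retinoids and vitamin D, sensors of lipids and foreign compounds, and orphan receptors with no settled ligand. In the mouse egg cylinder the best known members act in the embryo itself: Nr6a1 and Nr5a2 regulate Pou5f1 in opposite directions, Hnf4a drives secretory and lipoprotein genes in visceral endoderm, and Esrrb is required in the trophoblast lineage. The uterus around the implanted embryo depends on other members, since the oestrogen receptor Esr1, the progesterone receptor Pgr and Nr2f2 (COUP-TFII) direct its preparation for implantation and the decidual response of its stroma.

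The rule took 46 nuclear receptor symbols and every probe set of the Affymetrix MOE430A and MOE430B arrays that is annotated to exactly 1 of them. It found 44 of the 46 genes, of 18193 genes that these arrays name, and 115 of 45265 probe sets: 71 probe sets for 42 genes on MOE430A and 44 for 21 genes on MOE430B. Of the 44 genes, 23 were on MOE430A alone, 2 on MOE430B alone and 19 on both. Nr1h2 and Nr2e3 were not analysed here, apart from the promoter counts below.

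RNA came from untreated mouse embryos at embryonic day 5.5, bred by mating B6SJLF1 with CerlP-GFP mice, whose GFP is driven by a Cer1 promoter and marks the anterior visceral endoderm, the signalling tissue that sets the head end of the body axis. All groups share this reporter background. Ad, the anterior distal fragment, was cut to contain the fluorescent cells and the epiblast beneath them. Pp, the posterior proximal fragment, was a triangle of proximal visceral endoderm and epiblast from the opposite side, cut up to the border with the extraembryonic region. The remaining kind of sample was the whole embryo. Each array type had 2 Ad, 2 Pp and 1 whole-embryo array, 10 arrays in all, with Ad and Pp replicates 1 and 2 on MOE430A and 3 and 4 on MOE430B. The labels do not say that replicates came from separate embryos, so a p-value here speaks of the spread among these arrays, which may be technical. The single whole-embryo array of each type has no replicate, and its spread was taken to be that of the fragments.

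Signal is the deposited MAS5 intensity in arbitrary units. MOE430A arrays had medians of 590 to 644 and MOE430B arrays of 56.8 to 61.0, and levels are not set against each other between array types or between probe sets. A probe set was kept for testing when its mean log2 signal lay above the 40th percentile of its array type, a signal of about 464 on MOE430A and 37.2 on MOE430B. Of the receptor probe sets 32 of 71 (45.1%) were kept on MOE430A and 22 of 44 (50%) on MOE430B, against 60% of all probe sets on each. A gene is described by its brightest kept probe set on each array type unless another is named. That gave 27 receptor genes on MOE430A, 15 on MOE430B and 32 on either. The other 12 genes with a probe set, which lay below the filter on every array type that carries them, were Nr3c1, Nr3c2, Esrra, Rara, Rxrg, Pparg, Thrb, Nr1i2, Hnf4g, Nr2f1, Nr4a2 and Nr0b1. In bulk tissue a lower signal from fewer cells of a type and one from less RNA per cell cannot be told apart.

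Marker genes were read as a check of the labels. Of 9 anterior visceral endoderm markers on MOE430A, 5 were higher in Ad than in Pp, beside 0.162% of all kept probe sets. Of 7 kept epiblast markers on MOE430A, 5 were higher in the fragments than in the whole embryo, beside 4.6% of all. The whole-embryo arrays also carried the RNA of genes known from decidua and uterine stroma. Of these, 14 of 16 kept markers on MOE430A and 2 of 2 on MOE430B were lower in the fragments. Over all kept probe sets 5.18% and 1.81% were lower. Since 7 of the 16 had a fragment mean below the filter signal, the list was also read with no filter. There 16 of 20 on MOE430A and 3 of 7 on MOE430B were lower, beside 4.15% and 0.831% of all probe sets. The summed signal of that list was 11213 and 14505 in Ad and 11720 and 10948 in Pp, against 68449 in the whole embryo, on MOE430A, and 320 and 425 in Ad and 353 and 326 in Pp, against 4820 in the whole embryo, on MOE430B. Extraembryonic ectoderm markers summed to 8903 and 8745 in Ad and 8395 and 14478 in Pp on MOE430A, against 16904 in the whole embryo, so Pp replicate 2 stood apart from Pp replicate 1.

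Promoters are printed for Esr1 and Pgr, which passed between fragments and whole embryo, for Nr2f2, which passed when no filter was used, and for Nr6a1, which had the highest positive difference on MOE430B. Each runs from 250 bases before to 50 bases after an annotated start (RefSeq, GRCm38.p6), is written 5′ to 3′ on the gene's strand, and has motif matches in capitals. The motifs searched on both strands were AGGTCA (the half-site of many nuclear receptors), AGAACA (a half-site of the steroid receptors other than the oestrogen receptors), GGGCGG (the GC box) and TATAAA (the TATA box). Esr1 has a start at chr10:4611739-4612038 and another at chr10:4709908-4710207, both on the plus strand. Pgr lies at chr9:8899583-8899882 on the plus strand and Nr2f2 at chr7:70366697-70366996 on the minus strand. Nr6a1 has a start at chr2:38784466-38784765 and another at chr2:38926412-38926711, both on the minus strand.
Esr1, upstream start: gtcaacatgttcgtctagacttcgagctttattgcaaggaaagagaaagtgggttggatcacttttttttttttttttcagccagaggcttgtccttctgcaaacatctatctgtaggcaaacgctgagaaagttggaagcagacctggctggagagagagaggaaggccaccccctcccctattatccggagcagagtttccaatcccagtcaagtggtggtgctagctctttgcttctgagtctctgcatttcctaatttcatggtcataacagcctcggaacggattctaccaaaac
Esr1, downstream start: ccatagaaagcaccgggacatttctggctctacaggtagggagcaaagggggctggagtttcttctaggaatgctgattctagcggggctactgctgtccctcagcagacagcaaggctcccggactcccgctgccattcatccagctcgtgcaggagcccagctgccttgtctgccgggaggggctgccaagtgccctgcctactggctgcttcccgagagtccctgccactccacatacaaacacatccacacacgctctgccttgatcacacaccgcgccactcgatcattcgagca
Pgr: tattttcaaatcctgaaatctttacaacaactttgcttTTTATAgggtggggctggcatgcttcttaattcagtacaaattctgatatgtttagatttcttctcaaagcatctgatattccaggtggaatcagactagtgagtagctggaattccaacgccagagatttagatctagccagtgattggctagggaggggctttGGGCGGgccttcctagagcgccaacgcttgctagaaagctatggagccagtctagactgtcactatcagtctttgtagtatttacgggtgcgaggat
Nr2f2: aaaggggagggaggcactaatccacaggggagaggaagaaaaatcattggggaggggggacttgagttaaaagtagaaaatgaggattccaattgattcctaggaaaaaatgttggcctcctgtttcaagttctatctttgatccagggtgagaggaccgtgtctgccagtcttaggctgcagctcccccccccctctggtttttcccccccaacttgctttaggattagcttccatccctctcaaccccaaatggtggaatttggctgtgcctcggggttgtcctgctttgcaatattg
Nr6a1, start nearer the gene's 3′ end: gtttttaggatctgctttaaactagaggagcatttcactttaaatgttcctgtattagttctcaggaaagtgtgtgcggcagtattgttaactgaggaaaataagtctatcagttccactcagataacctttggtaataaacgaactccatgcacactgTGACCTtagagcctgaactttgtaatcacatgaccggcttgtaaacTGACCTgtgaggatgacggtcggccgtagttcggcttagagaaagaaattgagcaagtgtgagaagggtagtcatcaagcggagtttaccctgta
Nr6a1, start farther from the gene's 3′ end: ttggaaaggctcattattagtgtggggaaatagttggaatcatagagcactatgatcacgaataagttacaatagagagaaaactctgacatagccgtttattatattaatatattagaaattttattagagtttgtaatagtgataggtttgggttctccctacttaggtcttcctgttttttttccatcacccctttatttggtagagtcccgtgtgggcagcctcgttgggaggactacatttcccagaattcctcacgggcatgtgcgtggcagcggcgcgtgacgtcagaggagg

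Neither the Esr1 windows nor the Nr2f2 window held any of these 4 motifs. The Pgr window held 1 GGGCGG and 1 TATAAA, the TATAAA on the opposite strand, where it reads TTTATA. One Nr6a1 window held 2 AGGTCA matches, both on the opposite strand as TGACCT, and the other held none. RefSeq gave 63 promoters for 42 of the 46 receptor symbols, Nr1h2 and Nr2e3 among them. Of these promoters 12 (19%), of 11 genes, held AGGTCA, against 16.3% of all 32851 promoters. AGAACA was in 7.94% of receptor promoters and 19% of all, GGGCGG in 44.4% and 35.7%, and TATAAA in 12.7% and 13.6%. Receptor promoters had a median GC content of 58.7% and a median of 13 CpG, against 52.7% and 7 over all promoters. A match is only a run of letters, and matches of different motifs did not overlap in the printed windows.

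Fragments were first compared with the whole embryo, which asks which receptors carry less or more RNA once the embryo is cut to epiblast and visceral endoderm. On MOE430B 2 of 15 kept receptor genes, Esr1 and Pgr, were lower in the fragments, and none was higher, by limma with Benjamini-Hochberg adjustment over all kept probe sets. Over all kept probe sets of MOE430B 2.21% passed, 1.81% lower and 0.407% higher. On MOE430A 0 of 27 receptor genes passed by their brightest probe set in limma, where 9.78% of all kept probe sets passed, 5.18% lower and 4.6% higher. At an unadjusted p under 0.05 there were 3 of the 27, where 27.3% of all kept probe sets lay. The median log2 difference of fragments minus whole embryo was 0.065 over the 27 genes on MOE430A, beside 0.048 over all kept probe sets, and -0.12 over the 15 genes on MOE430B, beside 0.025. Of the 27 genes 20 lay within 0.2 of 0 on the log2 scale.

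**Figure D1:**
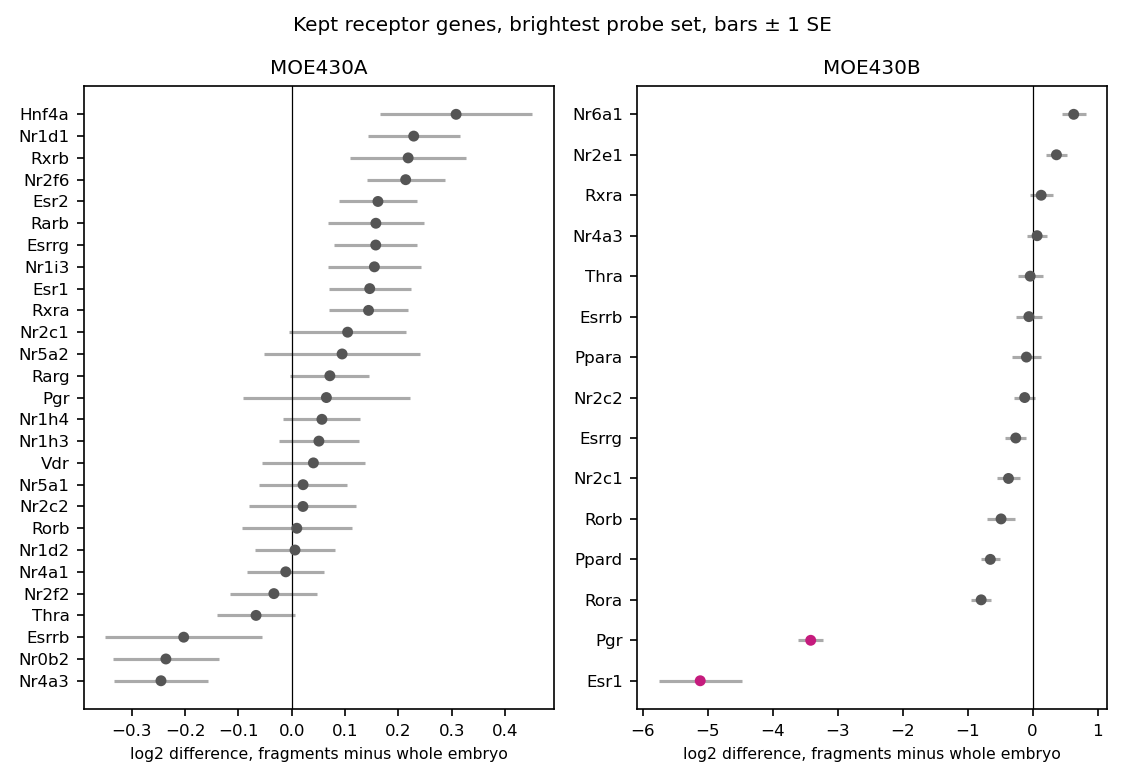
Log2 difference of the mean of Ad and Pp fragments minus the whole embryo (horizontal axis) for each kept receptor gene, 27 on MOE430A (left) and 15 on MOE430B (right), with bars of 1 SE from the fit and genes past an adjusted p of 0.05 in magenta. Esr1 at -5.11 and Pgr at -3.41 lie far left of the other genes on MOE430B, and the MOE430A genes span -0.25 to 0.31.

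Among the steroid hormone receptors, both calls were on MOE430B, and the 3 kept on MOE430A had no call and a median of 0.15. Esr1, the main oestrogen receptor of the uterus, had signals of 17.8 and 81.9 in Ad and 84.4 and 36.3 in Pp, against 1999 in the whole embryo (brightest MOE430B probe set). All 4 fragment arrays lay far below the whole embryo, and the Ad and Pp arrays overlapped. The fragments averaged 55.1 ± 33.2 (SD, n = 4), and the log2 difference from the whole embryo was -5.11 (SE 0.64, limma adjusted p = 0.0129), a fitted fold of 34.6. This call was lost when no filter on low values was used (-5.14, adjusted p = 0.0596). A dimmer MOE430B probe set of Esr1 had 40.6 and 32.6 in Ad and 35.8 and 35.8 in Pp, against 70.7 in the whole embryo, and did not pass (-0.81, adjusted p = 0.0743, and 0.156 with no filter). Its fragment mean of 36.2 lay below the filter signal of 37.2, so it was kept through the whole-embryo array and its difference is no separate support. The MOE430A probe set of Esr1 did not share this pattern, with 888 and 809 in Ad and 898 and 870 in Pp, against 816 in the whole embryo (0.15, SE 0.077, adjusted p = 0.280).

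Pgr, the progesterone receptor, through which progesterone permits implantation and decidualisation, had signals of 80.3 and 78.2 in Ad and 101 and 78.4 in Pp, against 991 in the whole embryo (brightest MOE430B probe set). Every fragment array was lower than the whole embryo, and the fragment arrays lay close together. The fragments averaged 84.4 ± 10.9 (SD, n = 4), and the log2 difference was -3.41 (SE 0.19, limma adjusted p = 0.00150), a fitted fold of 10.7. The other Pgr probe set of MOE430B had 69.9 and 66.7 in Ad and 52.1 and 58.2 in Pp, against 72.5 in the whole embryo (-0.21, adjusted p = 0.533). On MOE430A Pgr had 664 and 707 in Ad and 395 and 605 in Pp, against 592 in the whole embryo (0.065, adjusted p = 0.820), so the probe sets of Pgr, like those of Esr1, disagreed in size and, between array types, in sign. The lower signal of Esr1 and Pgr in the fragments moved with the decidua and uterine stroma markers summed above, whose part in the result was not tested. The brightest probe set of each gene had a fragment mean above the filter signal of 37.2, although the Esr1 arrays at 17.8 and 36.3 lay below it.

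Esr2, the second oestrogen receptor, was kept on MOE430A and had no call. Nr3c1, the glucocorticoid receptor, and Nr3c2, the mineralocorticoid receptor, had no kept probe set. They were therefore read in a fit with no filter on low values, in which 939 of 22626 probe sets of MOE430A (4.15%) and 187 of 22511 of MOE430B (0.831%) were lower in the fragments, of 6.26% and 0.871% that passed in either direction. A receptor that passes the filter only through a high whole-embryo array would have to differ, which this fit avoids.

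In that fit 3 of 71 receptor probe sets on MOE430A and 3 of 44 on MOE430B were lower in the fragments and none was higher. Over all probe sets 4.15% and 0.831% were lower, so the MOE430A count sits near the background. Between Ad and Pp 0 receptor probe sets passed with no filter, where 0.084% and 0.00888% of all did. The lower probe sets of MOE430A belonged to Nr2f2, Nr3c1 and Rxra, and those of MOE430B to Nr2f2, Nr3c1 and Pgr.

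Nr2f2, an orphan receptor of uterine stroma that acts there downstream of progesterone, had 37.5 and 18.9 in Ad and 15.4 and 11.5 in Pp, against 165 in the whole embryo, on MOE430B (-2.59, SE 0.31, limma adjusted p = 0.0409 with no filter). A dim MOE430A probe set of Nr2f2 had 18.4 and 22.9 in Ad and 10.4 and 15.0 in Pp, against 193 in the whole embryo (-0.67, SE 0.059, adjusted p = 0.00616 with no filter). All fragment arrays were lower in both, and the log2 difference of so dim a probe set on MOE430A is drawn towards 0 by the pseudocount of 248. The brightest MOE430A probe set of Nr2f2 showed no such gap, with 1104 and 1020 in Ad and 1056 and 1132 in Pp, against 1186 in the whole embryo (-0.034, adjusted p = 0.821).

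Nr3c1 was listed by 6 probe sets, and 2 of them passed with no filter. On MOE430B it had 34.7 and 30.1 in Ad and 15.8 and 19.4 in Pp, against 106 in the whole embryo (-1.79, SE 0.17, limma adjusted p = 0.0219). On MOE430A a probe set that was not its brightest had 354 and 293 in Ad and 308 and 315 in Pp, against 550 in the whole embryo (-0.43, SE 0.070, adjusted p = 0.0337). The fragment arrays lay below the whole embryo in both cases. The brightest MOE430A probe set of Nr3c1 did not pass (-0.11, adjusted p = 0.310 with no filter). Nor did the others, at 0.079 on MOE430A and at 0.21 and -0.17 on MOE430B. On MOE430B the Ad arrays of Nr3c1 lay above the Pp arrays, at a log2 difference of 0.55 that did not pass (adjusted p = 0.548 with no filter).

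**Figure D2:**
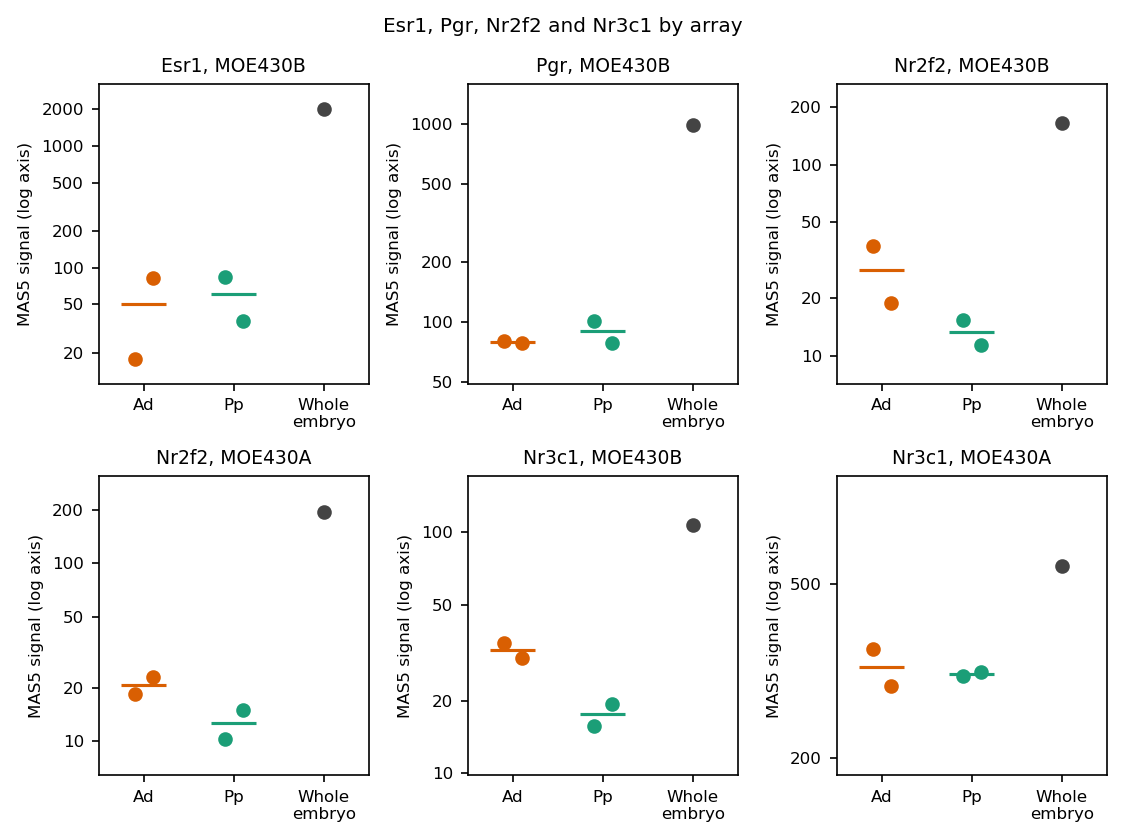
Deposited MAS5 signal on a log axis for 6 probe sets of Esr1, Pgr, Nr2f2 and Nr3c1, with 1 point per array for Ad, Pp and the whole embryo and a line at the mean of each fragment group. In each panel the whole-embryo point lies above all 4 fragment points, with fragments of 17.8 to 84.4 against 1999 for Esr1 and of 293 to 354 against 550 for Nr3c1 on MOE430A. The MOE430A probe sets shown for Nr2f2 and Nr3c1 are not the brightest of their genes.

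**Figure D3:**
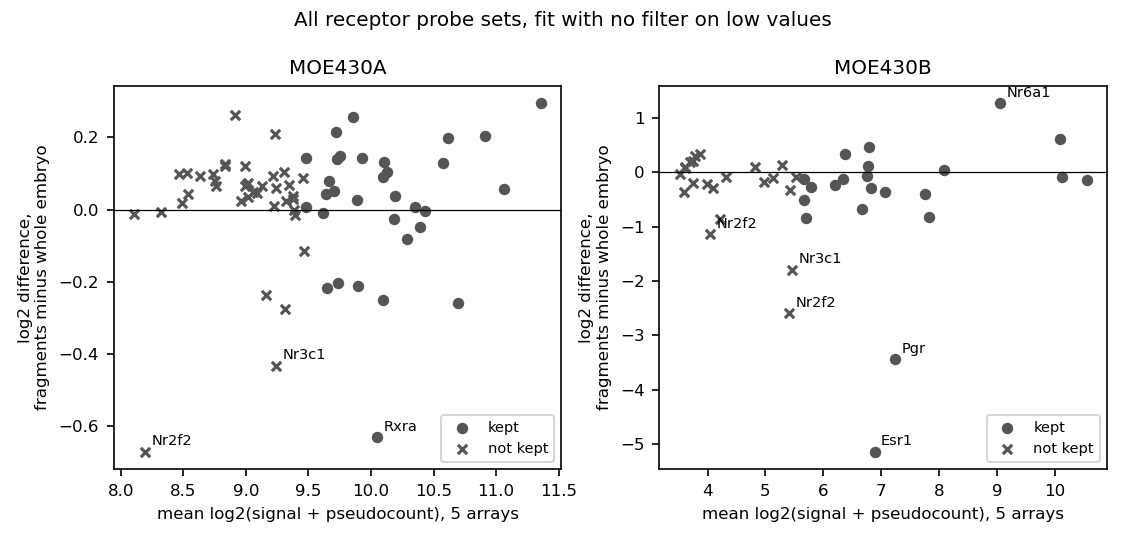
Log2 difference of fragments minus whole embryo (vertical axis) against the mean log2 of signal plus pseudocount over 5 arrays (horizontal axis), for all 71 receptor probe sets of MOE430A (left) and all 44 of MOE430B (right), fitted with no filter; circles were kept and crosses not. Probe sets of Esr1, Pgr, Nr2f2, Nr3c1 and Rxra lie low, and the brighter Nr6a1 probe sets of MOE430B lie high.

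Genes known to answer oestrogen or progesterone in the uterus were listed beside these receptors. They were read in the fit with no filter, since Hoxa10, Bmp2 and Wnt4 had fragment means below the filter signal. On MOE430A 5 of 15 were lower in the fragments and none was higher: Hoxa10 and Hoxa11, homeobox genes of uterine stroma, the signals Bmp2 and Wnt4, needed for decidualisation, and the activin antagonist Fst. Hoxa10 had 357 and 392 in Ad and 411 and 398 in Pp, against 1887 in the whole embryo (-1.68, limma adjusted p = 0.00103 with no filter). On MOE430B 3 of 8 were lower, the stromal factor Hand2, Fst and Wnt4. Over all probe sets of that fit 4.15% on MOE430A and 0.831% on MOE430B were lower. Hand2 had 110 and 144 in Ad and 140 and 135 in Pp, against 2223 in the whole embryo (-4.00, adjusted p = 0.00678 with no filter). Hoxa10, Hoxa11, Bmp2, Wnt4 and Hand2 are also in the decidua and uterine stroma list. Greb1, an oestrogen target, had the opposite sign on MOE430B, with 847 and 626 in Ad and 733 and 587 in Pp, against 417 in the whole embryo, and did not pass (0.68, adjusted p = 0.34 with no filter).

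Other receptors with known uterine roles lay nearer the whole embryo than Esr1 and Pgr did on MOE430B. Of the 8 receptors listed as uterine, Esr1 and Pgr included, 5 were kept on MOE430A with 0 calls. On MOE430B 3 were kept, Esr1, Pgr and Rora, and the 2 calls were those of Esr1 and Pgr. Over all kept probe sets 9.78% on MOE430A and 2.21% on MOE430B passed against the whole embryo. Rora, a receptor that binds its element as a monomer and acts in the circadian clock, had 209 and 197 in Ad and 192 and 179 in Pp, against 342 in the whole embryo (MOE430B). Each fragment array was lower, yet the log2 difference of -0.79 (SE 0.16, limma adjusted p = 0.0646) missed the threshold, and it crossed it under several alternatives (0.0283 to 0.284). A second Rora probe set pointed the other way, with 107 and 111 in Ad and 107 and 108 in Pp, against 73.9 in the whole embryo (0.49, adjusted p = 0.182). Ppard, a fatty acid sensor known to act in decidualisation, had 87.5 and 88.2 in Ad and 73.4 and 83.2 in Pp, against 135 in the whole embryo (-0.65, adjusted p = 0.100).

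The receptors of the early embryo formed the second group, 10 genes listed as embryonic. Of these 8 were kept on MOE430A and 5 on MOE430B, and 0 passed by their brightest probe set in either comparison with limma. Over all kept probe sets 9.78% and 2.21% passed against the whole embryo, and 0.169% and 0.111% between Ad and Pp. The median difference of the embryonic receptors from the whole embryo was 0.10 on MOE430A, with 7 of 8 positive, and -0.058 on MOE430B, with 2 of 5 positive. Over all kept probe sets the medians were 0.048 and 0.025, and 60.8% and 53.6% were positive.

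Nr6a1, the germ cell nuclear factor, a repressor of Pou5f1 at gastrulation, had 1180 and 1388 in Ad and 1192 and 1018 in Pp, against 759 in the whole embryo (MOE430B). All fragment arrays were above the whole embryo, and the Ad and Pp arrays overlapped. The fragments averaged 1194 ± 152 (SD, n = 4), and the log2 difference of 0.63 (SE 0.18, limma adjusted p = 0.167) did not pass. Its next probe set had 715 and 816 in Ad and 830 and 319 in Pp, against 249 in the whole embryo. Pp replicate 4 stood apart there, and the difference from the whole embryo was 1.29 (SE 0.46, adjusted p = 0.244). Without Pp replicate 4, with a lone Pp array, the differences of these 2 probe sets were 0.70 and 1.64. Without Pp replicate 3 that of the second was 0.94. The dimmest kept probe set of Nr6a1 had 66.8 and 52.7 in Ad and 76.6 and 86.6 in Pp, against 75.2 in the whole embryo.

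Hnf4a, the hepatocyte nuclear factor that marks visceral endoderm, had the highest positive difference on MOE430A. Its signals were 2870 and 2327 in Ad and 2124 and 2599 in Pp, against 2068 in the whole embryo. Each fragment array was above the whole embryo, the lowest by little, and the difference of 0.31 (SE 0.14, limma adjusted p = 0.230) did not pass. Without Pp replicate 1, whose signal was the lowest of the fragments, it was 0.38, with a lone Pp array. The other kept probe set of Hnf4a overlapped, with 898 and 847 in Ad and 836 and 933 in Pp, against 849 in the whole embryo (0.12, adjusted p = 0.425). Those not kept also overlapped, at 0.038 and -0.016 with no filter. Of the genes that Hnf4a is known to activate in visceral endoderm, all 10 kept on MOE430A had a positive difference, with a median of 0.25 beside 0.048 over all kept probe sets. Of all kept probe sets 60.8% were positive. Of the 12 on the array, those not kept were Alb at 0.11 and Serpina1b at -0.29 (limma adjusted p = 0.0619 with no filter). In that fit Apoc2 was at -0.0014, and only Rbp4 passed, beside 6.26% of all probe sets in either direction. With the filter, higher calls were made for 2 of the 10, beside 4.6% of all. Those were Apoa1, an apolipoprotein (0.80, adjusted p = 0.0373, and 0.059 with no filter), and Rbp4, the plasma retinol carrier (1.28, adjusted p = 0.00385). Rbp4 had 5237 and 4550 in Ad and 2833 and 3373 in Pp, against 1556 in the whole embryo. Of 11 visceral endoderm markers on MOE430A, 3 were called higher in the fragments, and 7 differences were positive and 4 negative. Apoa1, Apob and Ttr are in both lists, and the part of the markers was not tested.

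Esrrb, an orphan receptor of pluripotent cells and of the extraembryonic ectoderm, gave the most negative difference between Ad and Pp on MOE430A. It had 416 and 443 in Ad, against 525 and 752 in Pp, and 691 in the whole embryo. The Ad and Pp arrays did not overlap, and Pp replicate 2 was the highest of the 4. Ad averaged 429 ± 19.4 and Pp 639 ± 161 (SD, n = 2 each), a log2 difference of -0.45 (SE 0.13, limma adjusted p = 0.341). With a lone Pp array, whose spread cannot be measured, it was -0.64 without Pp replicate 1 and -0.25 without Pp replicate 2. Markers of extraembryonic ectoderm were high on the same array: Elf5, a trophoblast stem cell factor, had 340 and 296 in Ad and 601 and 2432 in Pp, and Bmp4 had 744 and 605 in Ad and 573 and 2359 in Pp. Their part in the Esrrb difference was not tested. On MOE430B Esrrb had 1122 and 1079 in Ad and 920 and 1298 in Pp, against 1136 in the whole embryo, with no call in either comparison.

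Nr5a2, the liver receptor homologue that maintains Pou5f1 in epiblast, had 590 and 603 in Ad and 651 and 433 in Pp, against 557 in the whole embryo (0.094 for fragments minus whole embryo, limma adjusted p = 0.716). Nr0b1 (DAX1), a corepressor of pluripotent cells, lay below the filter, with 240 and 244 in Ad and 235 and 353 in Pp, against 247 in the whole embryo. Neither of these probe sets separated the fragments from the whole embryo. A dimmer Nr5a2 probe set that was not kept had 330 and 290 in Ad and 287 and 301 in Pp, against 429.5 in the whole embryo. All fragments were lower there, and the difference did not pass (-0.24, limma adjusted p = 0.102 with no filter). The others not kept were at -0.00019, with all fragments lower in deposited signal, and at 0.099. Nr0b2 (SHP), which lacks a DNA-binding domain and represses other receptors, had 947 and 902 in Ad and 631 and 759 in Pp, against 1059 in the whole embryo. Its Ad arrays lay above its Pp arrays, at 0.25 (SE 0.089, adjusted p = 0.389), and all fragments lay below the whole embryo, at -0.24 (adjusted p = 0.197).

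**Figure D4:**
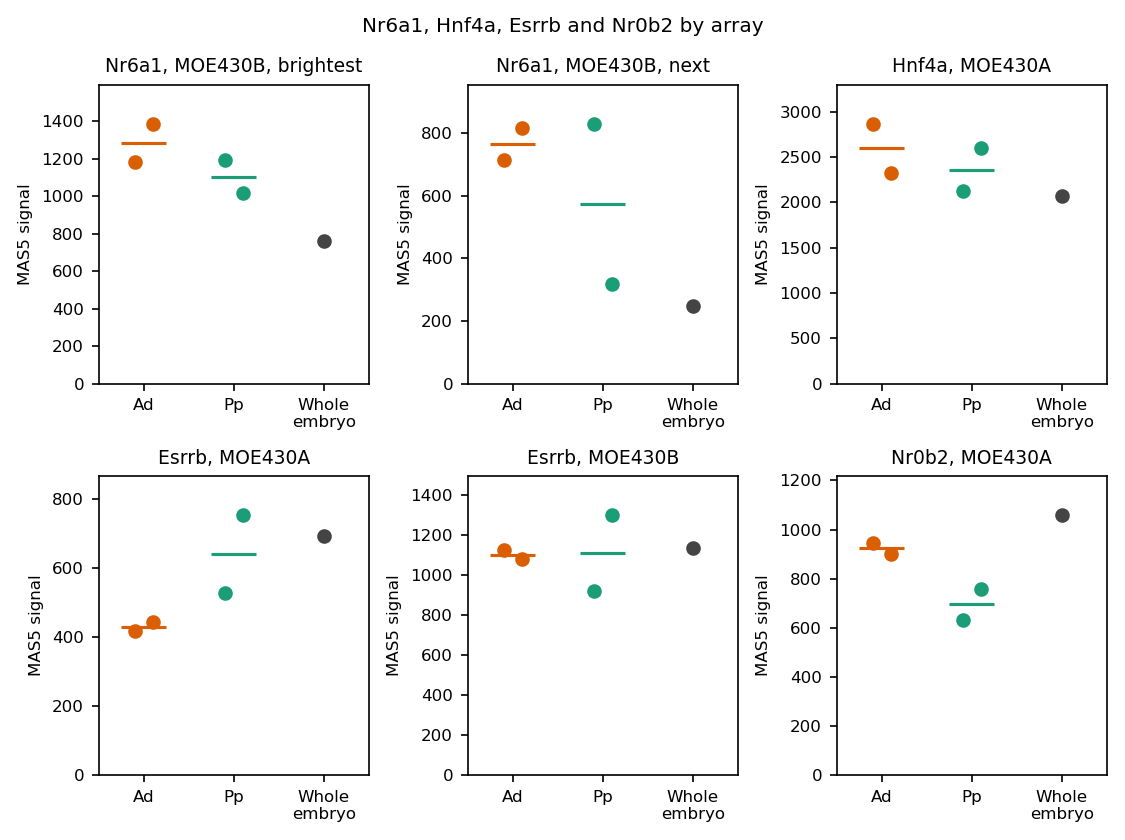
Deposited MAS5 signal (linear axis from 0) for 6 probe sets of Nr6a1, Hnf4a, Esrrb and Nr0b2, with 1 point per array for Ad, Pp and the whole embryo and a line at the mean of each fragment group. Nr6a1 lies higher in all fragments than in the whole embryo, and Esrrb on MOE430A is lower in both Ad arrays than in both Pp arrays.

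The retinoid receptors bind retinoic acid (the RARs) or serve as the common dimer partner of other receptors (the RXRs). Rarg had 1888 and 1849 in Ad and 1960 and 1851 in Pp, against 1899 in the whole embryo (0.071 for fragments minus whole embryo, limma adjusted p = 0.577). The arrays of this probe set overlapped throughout. The other kept probe set of Rarg had 764 and 618 in Ad and 641 and 666 in Pp, against 865 in the whole embryo. All fragments were lower there, and the difference of -0.20 (adjusted p = 0.266) did not pass. Rxrb had 1862 and 1864 in Ad and 1441 and 1741 in Pp, against 1539 in the whole embryo, with no call for Ad minus Pp (0.14, adjusted p = 0.613) or for fragments minus whole embryo (0.22, adjusted p = 0.257).

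Rxra had 1294 and 1312 in Ad and 1251 and 1296 in Pp, against 1221 in the whole embryo, by its brightest probe set of MOE430A (0.14, limma adjusted p = 0.272). Another kept MOE430A probe set of Rxra was lower in the fragments, with 775 and 734 in Ad and 683 and 669 in Pp, against 1311 in the whole embryo. All fragment arrays were about alike there, and the log2 difference was -0.62 (SE 0.073, adjusted p = 0.00831). It lost its call without Ad replicate 1 (0.0593) or Ad replicate 2 (0.0673). On MOE430B Rxra had 81.1 and 93.6 in Ad and 103 and 132 in Pp, against 90.9 in the whole embryo. Both Ad arrays were lower than both Pp arrays, and the Ad minus Pp difference of -0.46 (SE 0.16, adjusted p = 0.432) did not pass.

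Genes of the retinoic acid response gave 0 calls among 3 kept on MOE430A. Cyp26a1, the enzyme that clears retinoic acid, had 8574 and 8156 in Ad and 4057 and 5522 in Pp, against 4092 in the whole embryo. Its Ad arrays lay above its Pp arrays, and neither Ad minus Pp (0.72, limma adjusted p = 0.208) nor fragments minus whole embryo (0.67, adjusted p = 0.0565) passed.

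The Ad and Pp fragments were then compared, which asks whether a receptor differs along the forming axis. By limma 0 of 27 receptor genes on MOE430A and 0 of 15 on MOE430B passed, where 0.169% and 0.111% of all kept probe sets did. Of all kept probe sets 0.162% and 0.104% were higher in Ad, and 0.00737% and 0.0074% lower. At an unadjusted p under 0.05 there were 3 genes on MOE430A (Esrrb, Nr0b2 and the immediate early receptor Nr4a1) and 2 on MOE430B (Rxra and Nr2c1). Over all kept probe sets 11.7% and 10.4% lay under that p, so these counts sit near the background. The differences on MOE430A ran from -0.45 to 0.26 with a median of -0.040, and 24 of 27 lay within 0.2 of 0. On MOE430B they ran from -0.46 to 0.48 with a median of 0.046, and 9 of 15 lay within 0.2 of 0. Over all kept probe sets the medians were -0.027 and -0.012.

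**Figure D5:**
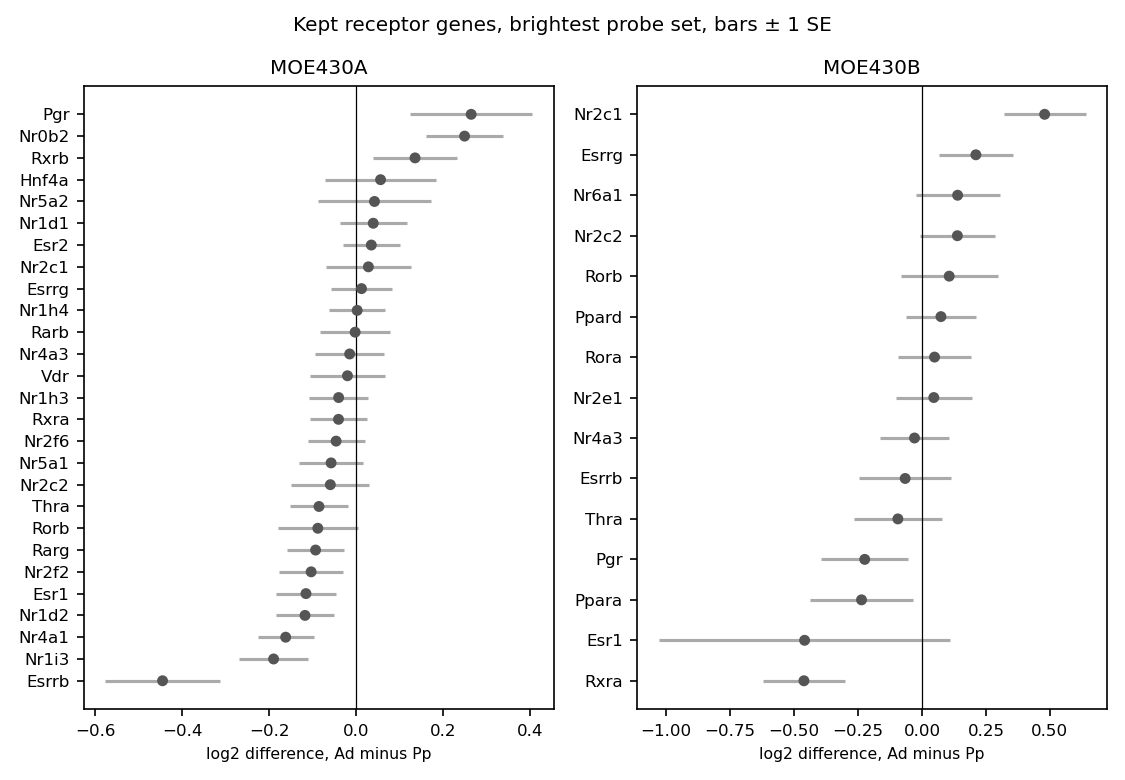
Log2 difference of Ad minus Pp (horizontal axis) for each kept receptor gene, 27 on MOE430A (left) and 15 on MOE430B (right), with bars of 1 SE from the fit. No gene passed an adjusted p of 0.05. Esrrb at -0.45 and Pgr at 0.26 end the MOE430A range, and Rxra at -0.46 and Nr2c1 at 0.48 end that of MOE430B.

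In deposited signal, both Ad arrays lay above both Pp arrays for 9 of 32 kept receptor probe sets on MOE430A and 7 of 22 on MOE430B, and below them for 4 and 2. Over all kept probe sets Ad lay above in 32.3% and 28.8% and below in 12.2% and 14.6%, so these counts sit near the background. Nr2c1 (TR2), an orphan receptor that represses embryonic globin genes, had 245 and 231 in Ad and 138 and 182 in Pp, against 253 in the whole embryo. In this MOE430B probe set the Ad arrays were above the Pp arrays, with a log2 difference of 0.48 (SE 0.16, limma adjusted p = 0.432). The kept MOE430A probe set of Nr2c1 overlapped, with 931 and 849 in Ad and 736 and 902 in Pp (0.028, adjusted p = 0.923). Those not kept were at -0.028 on MOE430A and at -0.063 and -0.056 on MOE430B with no filter. The MOE430A probe set of Pgr had an Ad minus Pp difference of 0.26 (SE 0.14, adjusted p = 0.515). Without Pp replicate 2 it was 0.47, with Pp replicate 1 (395) as the lone Pp array. Nr4a1 had 862 and 870 in Ad and 937 and 944 in Pp, against 978 in the whole embryo (-0.16, adjusted p = 0.418 for Ad minus Pp).

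The remaining genes that the rule for named genes picked for their rank had these values. Nr1i3, the xenobiotic receptor CAR, had 619 and 529 in Ad and 671 and 620 in Pp on MOE430A (-0.19 for Ad minus Pp, limma adjusted p = 0.431). Esrrg, an oestrogen-related receptor, had 101 and 120 in Ad and 85.0 and 91.6 in Pp on MOE430B (0.21, adjusted p = 0.648). Ppara, the fatty acid sensor of liver, had 29.5 and 45.7 in Ad and 46.5 and 38.7 in Pp on MOE430B (-0.24, adjusted p = 0.713). The Ad and Pp arrays overlapped for Ppara and did not for Nr1i3 and Esrrg.

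Against the whole embryo, Nr1d1, the clock repressor REV-ERB alpha, had 643 and 653 in Ad and 547 and 622 in Pp, against 530 in the whole embryo on MOE430A (0.23, limma adjusted p = 0.159). Nr4a3, an immediate early orphan receptor, had 1465 and 1268 in Ad and 1301 and 1309 in Pp, against 1734 in the whole embryo on MOE430A (-0.25, adjusted p = 0.147). Nr2e1, the tailless homologue known from neural stem cells, had 73.5 and 88.9 in Ad and 74.1 and 72.9 in Pp, against 57.1 in the whole embryo on MOE430B (0.37, adjusted p = 0.339). All fragments lay on the same side of the whole embryo in each case, and none passed. The kept MOE430B probe set of Nr4a3 had the opposite sign, with all fragments above the whole embryo (0.068, adjusted p = 0.871). A dimmer Nr2e1 probe set that was not kept also had the opposite sign (-0.19, adjusted p = 0.739 with no filter). Over the kept receptor probe sets, all 4 fragment arrays lay below the whole embryo for 11 of 32 on MOE430A and 10 of 22 on MOE430B, where 36.8% and 22.7% of all kept probe sets did. They lay above it for 8 and 5, where 22.0% and 29.4% of all did. The lipid, thyroid, vitamin D and xenobiotic receptors gave no call, with 5 genes kept on MOE430A and 3 on MOE430B.

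Proteins that work with the receptors gave 1 call. Of the coregulators, which include the Ncoa coactivators and the corepressor complex around Hdac3, 15 genes were kept on MOE430A and 10 on MOE430B, with 0 calls in limma in either comparison. Their median differences of fragments minus whole embryo were 0.13 and -0.14, and those of Ad minus Pp 0.027 and 0.20. Among the chaperones that hold steroid receptors ready for ligand, 1 of 6 kept on MOE430A passed against the whole embryo. Over all kept probe sets 9.78% on MOE430A, 4.6% higher, and 2.21% on MOE430B passed in that comparison. Between Ad and Pp 0.169% and 0.111% passed. Fkbp4, the cochaperone of the progesterone receptor in the uterus, had 6384 and 6957 in Ad and 7120 and 6796 in Pp, against 5390 in the whole embryo (0.40, limma adjusted p = 0.0427). All fragment arrays were higher than the whole embryo.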

How the data were processed

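RNA was linearly amplified and hybridised to Affymetrix MOE430A and MOE430B arrays, per the labels' protocols. The deposited values are MAS5 probe set intensity on a linear scale, per the submitters' processing notes. Its version and scaling target were not given in the sources used here. Values of exactly 1 made up at most 0.132% of a MOE430A array and 5.69% to 6.13% of a MOE430B array. Beyond signal over background, precision is set by how many arrays there are.

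MOE430A and MOE430B were fitted separately with limma 3.58.1 (R 4.3.3). Control probe sets, 64 per type, were left out, a pseudocount at the 20th percentile (248 on MOE430A, 10.5 on MOE430B) was added before log2, 13575 and 13506 probe sets were kept, and each array was centred on its median over them. The 3 kinds of sample were fitted with 2 residual degrees of freedom, tests were two-sided, and p-values were Benjamini-Hochberg adjusted over the kept probe sets of a type. Log2 differences are on the log2(signal + pseudocount) scale, which understates the change of dim probe sets. The script was tested on simulated data.

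Of the probe sets 20393 and 14674 had 1 gene symbol, 691 and 245 several, and 1606 and 7656 none. RefSeq names (GRCm38.p6) changed 0 symbols. A MOE430B probe set shared by Ppard and another symbol was not used.

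The rule for named genes takes, by the brightest probe set, every receptor past the threshold, the 3 with the largest difference each way per comparison and array type, and always Esrrb, Nr5a2, Nr6a1, Nr0b1, Hnf4a, Rarg, Rxra, Esr1, Pgr, Nr2f2 and Nr3c1. Ppard, Nr2f6 and genes of the other lists were named outside it, after their values were seen. Members and lists were chosen with earlier results of these data known. The alternatives were normalization, pseudocount, filter, intensity trend, probe set choice, replicate block and leaving out each fragment array.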

Additional observations from a re-analysis of the deposited data

How the results depend on the processing

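The count of receptor genes past the threshold in Ad minus Pp on MOE430B was 0 under every alternative. On MOE430A it was 0 except when an array was left out, when it ran from 0 to 2: 1 without Pp replicate 1 (Esrrb) and 2 without Pp replicate 2 (Nr0b2 and Pgr). In fragments minus whole embryo on MOE430A it was 1 when any kept probe set counted (Rxra), and from 0 to 3 with an array left out: 3 without Pp replicate 1 (Hnf4a, Nr1d1 and Rxrb, higher) and 2 without Pp replicate 2 (Esrrb and Nr0b2, lower). On MOE430B it was 3 with the larger pseudocount, the filter at the 60th percentile or an intensity trend (Esr1, Pgr and Rora), 3 with no filter (Nr2f2, Nr3c1 and Pgr), and from 2 to 7 with an array left out: 5 without Pp replicate 3 (Esr1, Nr2f2, Nr3c1, Pgr and Rora) and 7 without Pp replicate 4 (the same 5, Ppard lower and Nr6a1 higher). Leaving out an array leaves a lone array in its group, and changes the kept set, the residual degrees of freedom and the estimated spread. The Pgr difference on MOE430B kept its call throughout (-3.57 to -3.09, limma adjusted p 0.000153 to 0.0128). The whole-embryo array is single and could not be left out.

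Of 37 single-gene differences under 489 settings, 454 kept direction and side of the threshold, 22 came to pass, 3 no longer passed and 10 changed sign, for 8 differences. With no centring, fragments minus whole embryo changed sign for Pgr on MOE430A (-0.015) and Rarg (-0.0083). With an array left out, that difference ran from -0.00068 to 0.19 for Nr5a2, from -0.039 to 0.17 for Pgr on MOE430A and from -0.17 to 0.051 for Esrrb on MOE430B. Ad minus Pp on MOE430B ran from -1.31 to 0.39 for Esr1, from -0.0019 to 0.28 and from -0.22 to 1.19 for the brightest and next Nr6a1 probe sets, and from -0.47 to 0.00024 for Ppara. The cause was not tested.

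The replicate numbers share no stated animal, litter or day. Deviations of same-numbered Ad and Pp arrays correlated at -0.242 on MOE430A and -0.0392 on MOE430B. With the replicate block the counts stayed at 0, 0, 0 and 2, the last being Esr1 (limma adjusted p = 0.00306) and Pgr (0.000153). The crossed pairing on MOE430A, chosen after seeing the data, gave 1 call against the whole embryo (Hnf4a).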

Other observations

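The repressor Nr2f6 (EAR2) was the receptor whose second MOE430A probe set came closest to passing upwards against the whole embryo. It had 801 and 797 in Ad and 633 and 596 in Pp, against 585 in the whole embryo. Every fragment array was above the whole embryo (0.27, limma adjusted p = 0.0773) and both Ad arrays were above both Pp arrays (0.21, adjusted p = 0.353). Its brightest probe set had 1383 and 1343 in Ad and 1320 and 1357 in Pp, against 1209 in the whole embryo (0.21, adjusted p = 0.132).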
